A study of Homo sapiens with 9 samples.

Results

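Transcripts of the translation initiation and elongation factors were followed in MOLT4, a long-established human line from a T-cell acute lymphoblastic leukemia. The members were the gene rows whose symbol begins with EIF and a digit, without the EIF2AK kinases, together with EEF1A1, EEF1B2, EEF1D, EEF1E1, EEF1G, EEF2, EEF2K, PABPC1 and PABPC4. By this rule 62 of the 23621 gene rows were members. Of these, 58 had a mean of at least 1 FPKM (fragments per kilobase of transcript, scaled to the mapped fragments) over the 9 libraries and were among the 12301 genes tested. EIF3CL, EIF3IP1, EIF4E1B and the antisense row EIF1B-AS1 lay below that level and were not tested.

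The 9 polyA RNA libraries formed 3 groups of 3, all harvested after 6 h: vehicle (0.1% DMSO), libraries titled sunitinib and libraries titled MI-389. Sunitinib is a kinase inhibitor, and the series design calls MI-389 a phthalimide conjugate; such compounds can bind cereblon, which recruits proteins for ubiquitination. The titles and the source field of all 6 treated libraries name opposite compounds: the source field gives sunitinib at 1 µM for libraries titled MI-389, and MI-389 at 0.1 µM for libraries titled sunitinib. Groups follow the titles, as do the column names and the barcode list. Were the source field correct, each statement on one title would concern the other compound. The doses come from that crossed field and differ, so compound and dose cannot be told apart between the treated groups. The labels name no separate cultures behind the 3 libraries of a group, and p-values may therefore reflect technical spread alone.

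Initiation begins when eIF2 carries the initiator tRNA to the small ribosomal subunit. There eIF3 and the scanning factors eIF1, eIF1A and eIF5 keep the complex ready for a start codon, and the cap-binding complex eIF4F brings in the messenger RNA. Elongation then relies on eEF1A, which delivers aminoacyl-tRNAs and is recharged by the eEF1B exchange subunits, and on eEF2, which moves the ribosome along. Messenger RNAs of several of these proteins, the elongation factors above all, begin with a C followed by an unbroken run of pyrimidines, the 5′ terminal oligopyrimidine (TOP) motif, through which mTOR signaling controls their translation.

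An annotated start of each of 6 members is shown because the TOP members and the others are compared below. Sequences are from RefSeq on GRCh38.p14, while the deposited values were made on hg19, and 50 of the 62 members had an entry. Each line runs 5′ to 3′ on the gene's strand from 10 bases before the annotated start, and capitals mark the pyrimidine run that begins at the start with a C.
EEF1A1 (chr6:73521013-73521042, minus strand): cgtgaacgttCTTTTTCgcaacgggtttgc
EEF2 (chr19:3985444-3985473, minus strand): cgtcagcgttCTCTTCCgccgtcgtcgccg
EEF1B2 (chr2:206159885-206159914, plus strand): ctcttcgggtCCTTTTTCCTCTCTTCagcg
EIF3F (chr11:7987327-7987356, plus strand): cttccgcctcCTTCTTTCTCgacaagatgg
EIF4B (chr12:53006446-53006475, plus strand): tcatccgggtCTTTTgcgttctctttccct
EIF1 (chr17:41688875-41688904, plus strand): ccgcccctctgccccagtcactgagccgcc
EIF1, the member with the largest rise, has no capitals, since its annotated start is not such a run. EEF1B2 has another annotated start, without such a run, that is not shown. A C followed by at least 4 pyrimidines stood at an annotated start of 12 of the 48 tested members with a sequence (25.0%) and of 5.14% of the 27305 genes in the table.

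Promoter stretches of EIF1, EIF5 and EIF3J, all called higher under the MI-389 title, are shown for the motifs in them. EIF2S2 and EIF4EBP1 were called higher too but had no sequence. EIF1B, which held an E-box, and EIF3C, which held none of the motifs, are not shown. Windows of 250 bases before and 50 after each annotated start were searched on both strands for TGACTCA (AP-1), TGACGTCA (CRE), TGATGCAA (the C/EBP-ATF element), CACGTG (E-box) and CCAAT, and capitals mark the matches.
EIF1 (chr17:41688635-41688884, plus strand): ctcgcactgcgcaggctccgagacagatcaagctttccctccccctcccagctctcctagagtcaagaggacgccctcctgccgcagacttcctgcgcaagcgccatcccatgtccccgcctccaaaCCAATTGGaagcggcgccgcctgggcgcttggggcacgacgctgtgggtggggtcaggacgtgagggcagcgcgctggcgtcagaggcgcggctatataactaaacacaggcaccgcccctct
EIF5 (chr14:103334800-103334829, plus strand): gccgctcgggcTGACTCAggcttcagctgc
EIF3J (chr15:44537116-44537145, plus strand): agcaaacccagTGACTCAcctccgccgtgc
The EIF1 window held CCAAT once on each strand, and the 2 matches overlap. The EIF5 stretch lies before the second of its annotated starts, where the AP-1 motif occurred at −77 and again at −50. The 30 bases shown hold the first of these, and those of EIF3J hold its match at −20. AP-1 matches stood in 3 of 48 members (6.25%; EIF3J, EIF4G1 and EIF5) and in 6.05% of all genes, CRE matches in 1 member (EEF2; 2.08% against 2.25%), and the C/EBP-ATF element in 0 members against 1.08%. The E-box stood in 12 of 48 members (25.0%) against 8.77% of genes, and CCAAT in 22 (45.8%) against 39.7%. EIF4G1, unlike EIF3J and EIF5, was called lower under the MI-389 title. A match describes letters in the window and is no evidence of binding.

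All 14 T-lineage markers lay above 1 FPKM in every library, with a summed level of 4282 to 5703 FPKM, while 0 of 4 myeloid, 1 of 4 B-lineage and 1 of 4 epithelial and fibroblast markers did. The table gives no read totals. Heights of single-read steps put the treated libraries at about 1.37 (titled MI-389) and 1.39 (titled sunitinib) times the depth of DMSO, over 174 and 194 genes. Between libraries of the same group this estimate was 1.00 (DMSO), 1.09 (titled sunitinib) and 0.90 (titled MI-389). Step heights would also carry any scaling between libraries, which is not stated, so they do not measure depth alone. DMSO replicate 1 was the lowest of its group for 55 of the 58 tested members, and MI-389 replicate 2 for 51, so counts below are also given without single libraries.

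In libraries titled MI-389, 4 members rose far more than the others: EIF1, EIF2S2, EIF4EBP1 and EIF5. The start-codon gatekeeper EIF1 rose 2.29-fold against DMSO, the eIF2 β subunit EIF2S2 2.09-fold, the eIF4E inhibitor EIF4EBP1 2.04-fold and EIF5, the GTPase-activating protein of eIF2, 1.51-fold. Most other called members fell, with EEF1A1, the main elongation factor transcript, down 1.53-fold. Over the 58 tested members 7 were called higher (12.1%) and 25 lower (43.1%) at an adjusted p below 0.05 (limma), where 28.5% of all genes tested were called higher and 28.3% lower (56.7% in either direction). The members' median log2 difference was −0.14 and that of all genes −0.00. In 34 members the libraries of the groups did not overlap, against 60.2% of all genes. The FPKM scaling bears on these counts: 6 higher and 35 lower with libraries centred on their medians, 27 and 21 (quantile), 30 and 16 (cyclic loess), and 7 and 25 (rescaled to spike-in rows). The counts over all 12301 genes moved as well. In the same order they were 3222 higher and 4956 lower, 3721 and 4396, 4101 and 3988, and 3454 and 3421. As deposited, the 16 spike-in rows of at least 10 FPKM differed little from DMSO (median log2 difference −0.03 titled MI-389 and −0.01 titled sunitinib). Rescaling to them therefore stays close to the deposited values and adds little as a check.

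In libraries titled sunitinib no member was called higher than in DMSO and 18 were called lower (31.0%), where 2.37% of all genes were called higher and 16.9% lower (19.3% in all). The fitted differences lay above 0 for 10 members and below 0 for 48. The falls were small, from 0.20 to 0.32 on the log2 scale, and the members' median of −0.14 stood beside −0.10 for all genes. The count depended on single libraries, and only EIF1AX and EIF5B were called lower under every alternative run. Without DMSO replicate 1 the count was 42; without DMSO replicate 2 or 3 it was 3 or 5, and without sunitinib replicate 1, 2 or 3 it was 6, 2 or 2. Other scalings gave 5 higher and 16 lower (median centring), 11 and 17 (quantile), 14 and 16 (cyclic loess) and 1 and 20 (spike-in rows). Over all 12301 genes they gave 1270 higher and 1866 lower, 1696 and 1981, 1852 and 1962, and 266 and 1959. Libraries of 24 members did not overlap, against 35.2% of all genes.

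**Figure D1:**
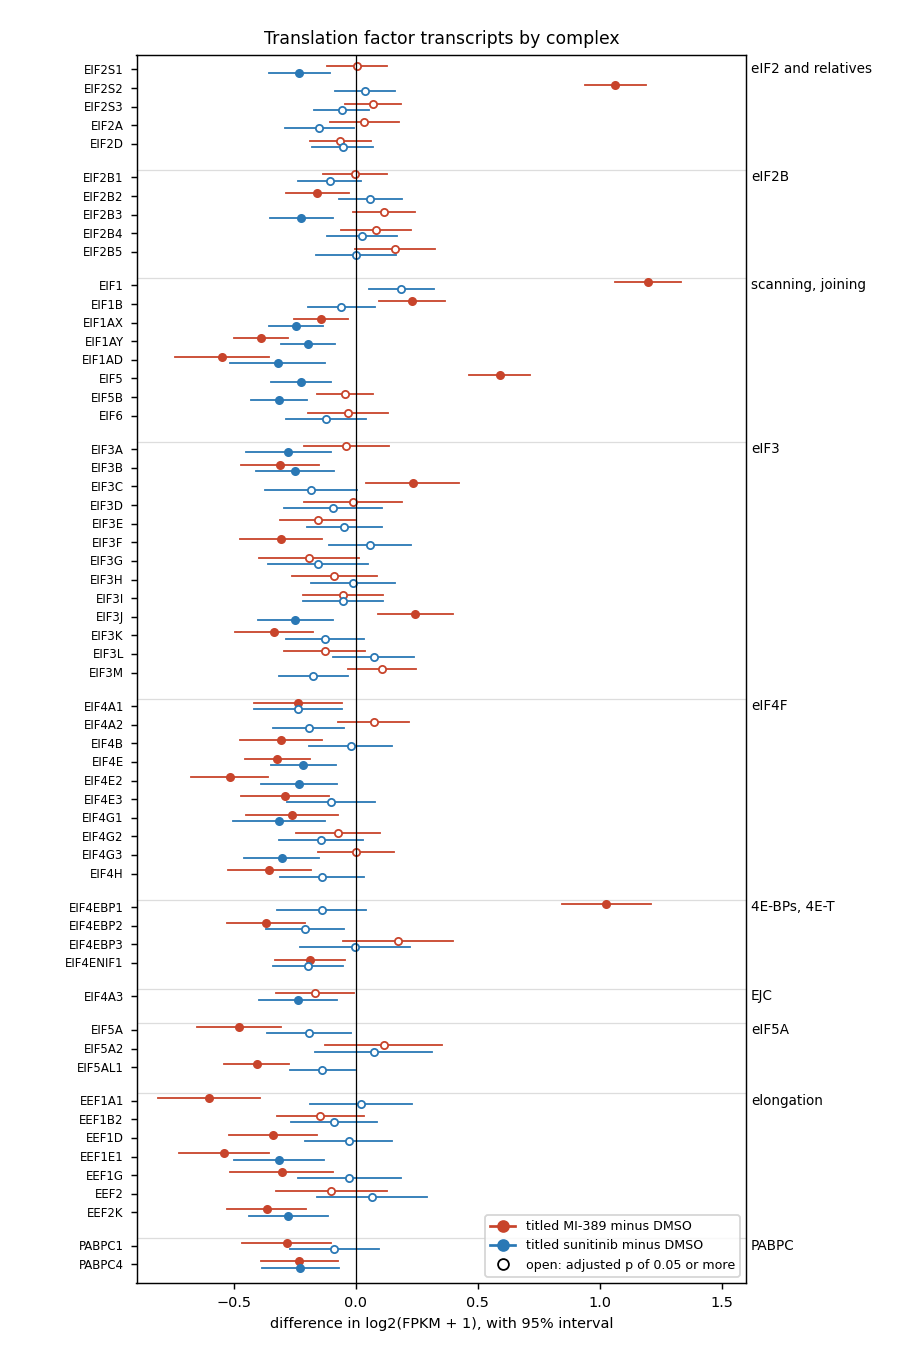
Differences in log2(FPKM + 1) from DMSO for the 58 tested members, grouped by complex, with 95% intervals from limma; red points are libraries titled MI-389, blue points libraries titled sunitinib, and open points did not pass an adjusted p of 0.05. EIF1, EIF2S2, EIF4EBP1 and EIF5 stand to the right in red only, and the blue points lie between −0.32 and 0.19.

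The ternary complex and its relatives had 5 tested members, of which 1 was called higher and 0 lower in libraries titled MI-389. Of all genes 28.5% were higher and 28.3% lower there. EIF2S2 measured 259.8, 279 and 293 FPKM with DMSO, 291, 281 and 281 FPKM titled sunitinib and 581, 564 and 594 FPKM titled MI-389. All 3 libraries titled MI-389 lay above all 6 others, and the other 2 groups overlapped. Means were 277 ± 16.6 FPKM (SD, n = 3) with DMSO and 579 ± 14.9 FPKM (SD, n = 3) under the MI-389 title (log2 difference 1.06 ± 0.06 SE, adjusted p = 6.98e-07). The α subunit EIF2S1, the site of stress-kinase phosphorylation, did not follow: it measured 98.4, 106 and 111 FPKM with DMSO, 92.4, 86.4 and 89.7 FPKM titled sunitinib and 106, 105 and 106 FPKM titled MI-389. The MI-389 and DMSO libraries of EIF2S1 overlapped (log2 difference 0.00 ± 0.06 SE, adjusted p = 0.956; 95% interval −0.12 to 0.13), while libraries titled sunitinib lay below both (log2 difference −0.23 ± 0.06 SE, adjusted p = 0.0195 against DMSO). After cyclic loess EIF2S1 was called higher under the MI-389 title (0.12, adjusted p = 0.00592). The call on sunitinib was lost without DMSO replicate 2 (adjusted p = 0.0605) and without sunitinib replicate 2 or 3 (0.0873 and 0.0689). Among the other 3 (the eIF2 subunit EIF2S3, with EIF2A and EIF2D) the largest log2 difference of MI-389 from DMSO was 0.07. As deposited, 0 of them were called in either comparison with DMSO. Under the 4 other scalings the MI-389 difference of EIF2S3 ran from −0.01 to 0.26. After quantile normalization, and after cyclic loess, 3 of the 5 were called higher and 0 lower under the MI-389 title.

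Of the 5 subunits of eIF2B, the exchange factor that reloads eIF2 with GTP, 1 was called lower in libraries titled MI-389 (28.3% of all genes). This was EIF2B2, at a log2 difference of −0.16 (adjusted p = 0.0408), a call lost without DMSO replicate 2 or 3 and without MI-389 replicate 1 or 2 (adjusted p 0.0966, 0.0997, 0.102 and 0.121). The counts for eIF2B depend on the scaling. After quantile normalization, and after cyclic loess, 4 subunits were called higher and 1 lower under the MI-389 title. Under the sunitinib title these 2 scalings gave 3 higher and 1 lower. The catalytic subunit EIF2B5 measured 76.2, 85.4 and 93.2 FPKM with DMSO, 87.0, 85.4 and 81.7 FPKM titled sunitinib and 99.3, 91.6 and 93.4 FPKM titled MI-389. Its MI-389 and DMSO libraries overlapped (log2 difference 0.16 ± 0.07 SE, adjusted p = 0.0862). It was called higher under the MI-389 title after quantile normalization (0.22, adjusted p = 1.90e-04), after cyclic loess (0.25, adjusted p = 7.01e-05) and without DMSO replicate 3 (0.23, adjusted p = 0.014). EIF2B3 was the subunit called lower in libraries titled sunitinib, where 16.9% of all genes were. It went from 64.6 ± 3.83 FPKM (SD, n = 3) to 55.1 ± 1.39 FPKM (SD, n = 3) (adjusted p = 0.0254). That call was lost with any library but DMSO replicate 1 left out, at adjusted p from 0.057 to 0.102.

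The 8 members listed under scanning and subunit joining, EIF1AD among them, held both the largest rise and several of the falls. They were 3 higher and 3 lower in libraries titled MI-389, and 0 higher and 5 lower in those titled sunitinib. EIF1AD is 1 of the falls in each (all genes: 28.5% and 28.3%, and 2.37% and 16.9%). EIF1 measured 665, 757 and 746 FPKM with DMSO, 825, 824 and 814 FPKM titled sunitinib and 1679, 1639.9 and 1649.5 FPKM titled MI-389. The 3 groups did not overlap for EIF1, although libraries titled sunitinib were not called against DMSO (log2 difference 0.19 ± 0.06 SE, adjusted p = 0.0565). Under each of the 4 other scalings, and without DMSO replicate 1, EIF1 was called higher there too. The rise under the MI-389 title had a log2 difference of 1.20 (SE 0.06, adjusted p = 5.32e-07) and lay between 1.12 and 1.55 under the 4 other scalings. EIF1B, a close copy of EIF1, measured 106, 113 and 111 FPKM with DMSO, 108, 109 and 99.8 FPKM titled sunitinib and 134, 119.9 and 134 FPKM titled MI-389. Its rise under the MI-389 title was smaller (log2 difference 0.23 ± 0.06 SE, adjusted p = 0.0093). The EIF1B to EIF1 ratio within a library was 0.152 with DMSO, 0.128 in libraries titled sunitinib and 0.0780 in those titled MI-389, with no overlap between any groups.

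EIF5 went in opposite directions in the treated groups, at 144, 158 and 159 FPKM with DMSO, 135, 131 and 127 FPKM titled sunitinib and 235, 222 and 236 FPKM titled MI-389. Every library titled MI-389 lay above the DMSO libraries (log2 difference 0.59 ± 0.06 SE, adjusted p = 2.01e-05), and every library titled sunitinib below them (log2 difference −0.22 ± 0.06 SE, adjusted p = 0.022). The fall under the sunitinib title was not called without DMSO replicate 2 or 3, without sunitinib replicate 2 or 3, or after cyclic loess (adjusted p from 0.0544 to 0.0913). EIF1 and EIF5 hold opposing roles at the start codon, and their ratio also shifted: EIF5 per EIF1 was 0.213 with DMSO, 0.160 in libraries titled sunitinib and 0.140 in those titled MI-389. No library of one group overlapped another in this ratio (exact permutation test, two-sided p = 0.1, the smallest that 3 against 3 allows; adjusted p = 0.129 over 18 tests).

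EIF5B, the GTPase that joins the ribosomal subunits, fell in libraries titled sunitinib, from 161, 169.6 and 179 FPKM to 138, 135 and 135 FPKM (log2 difference −0.32 ± 0.05 SE, adjusted p = 0.00497). The libraries titled MI-389, at 166, 160.1 and 167 FPKM, overlapped DMSO (log2 difference −0.05 ± 0.05 SE, adjusted p = 0.465), and the sign of that difference turned with quantile scaling (0.08) and with cyclic loess (0.14). EIF1AX, the X-linked eIF1A gene, fell in libraries titled sunitinib from 108 ± 5.35 FPKM (SD, n = 3) to 90.6 ± 2.17 FPKM (SD, n = 3) (log2 difference −0.25 ± 0.05 SE, adjusted p = 0.0104). It was called lower under the MI-389 title as well (log2 difference −0.14 ± 0.05 SE, adjusted p = 0.0302), a call lost in 10 alternatives, among them without DMSO replicate 2 or 3 and without MI-389 replicate 1, 2 or 3 (adjusted p from 0.0575 to 0.0802). EIF1AY averaged 126 FPKM with DMSO, 110 titled sunitinib and 95.9 titled MI-389, with all treated libraries below DMSO. Its fall under the MI-389 title held under every alternative (log2 difference −0.39 ± 0.05 SE, adjusted p = 1.22e-04). The sunitinib call (log2 difference −0.20 ± 0.05 SE, adjusted p = 0.0236) did not, at adjusted p up to 0.326. EIF1AD was called lower in both treated groups, at 45.8 FPKM with DMSO, 36.3 in libraries titled sunitinib and 30.9 in those titled MI-389. The call under the MI-389 title held under every alternative (log2 difference −0.55 ± 0.09 SE, adjusted p = 4.82e-04). The call on EIF1AD under the sunitinib title (adjusted p = 0.0304) was lost with any library but DMSO replicate 1 left out, at adjusted p from 0.0753 to 0.105. EIF6, which keeps the large subunit from joining early, was called in neither treated group and changed sign under the MI-389 title with the scaling (−0.03 as deposited, 0.20 and 0.25 after quantile normalization and cyclic loess).

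**Figure D2:**
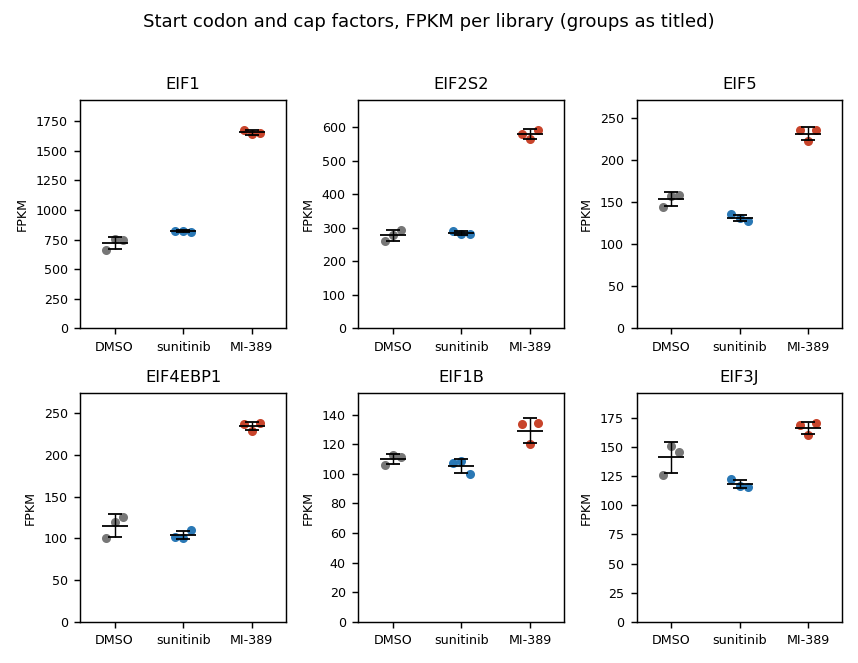
FPKM of EIF1, EIF2S2, EIF5, EIF4EBP1, EIF1B and EIF3J in each of the 9 libraries, by group as titled; points are libraries, and black marks give the mean and SD of 3. The libraries titled MI-389 lie above all others in each panel, by about 2-fold over DMSO for EIF1, EIF2S2 and EIF4EBP1.

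Of the 13 tested subunits of the eIF3 scaffold, 2 were called higher and 3 lower in libraries titled MI-389, and 0 and 3 in those titled sunitinib. Of all genes 28.5% were higher and 28.3% lower in the first comparison, and 2.37% and 16.9% in the second. The direction under the MI-389 title depends on the scaling, with 9 subunits higher and 3 lower after quantile normalization, and 10 higher and 1 lower after cyclic loess. Mean levels with DMSO ran from 141 FPKM for EIF3J to 801 FPKM for EIF3H. As deposited, the called subunits under the MI-389 title were EIF3C and EIF3J (higher) and EIF3B, EIF3F and EIF3K (lower). The loosely bound subunit EIF3J measured 126, 151 and 146 FPKM with DMSO, 122, 117 and 116 FPKM titled sunitinib and 169, 161 and 171 FPKM titled MI-389. Its libraries titled MI-389 lay above DMSO and those titled sunitinib below (log2 difference 0.24 ± 0.07 SE, adjusted p = 0.0127 and log2 difference −0.25 ± 0.07 SE, adjusted p = 0.0335). The call under the MI-389 title held in every alternative, and the one under the sunitinib title was lost with any library but DMSO replicate 1 left out (adjusted p from 0.0588 to 0.111).

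EIF3B, which forms the core of eIF3 with EIF3A, fell in libraries titled MI-389 from 144 ± 14.7 FPKM (SD, n = 3) to 115 ± 3.27 FPKM (SD, n = 3) (log2 difference −0.31 ± 0.07 SE, adjusted p = 0.0046). EIF3A measured 145, 173 and 181 FPKM with DMSO, 139, 139 and 131 FPKM titled sunitinib and 163, 155 and 165 FPKM titled MI-389. For EIF3A the MI-389 and DMSO libraries overlapped (log2 difference −0.04 ± 0.08 SE, adjusted p = 0.682), with a call in opposite directions after cyclic loess (0.14) and without DMSO replicate 1 (−0.13). The libraries titled sunitinib all lay below DMSO (log2 difference −0.28 ± 0.08 SE, adjusted p = 0.0358). That call was kept without DMSO replicate 1 and lost without any other library, at adjusted p from 0.0745 to 0.123. EIF3F and EIF3K fell by 0.31 and 0.34 under the MI-389 title, but after cyclic loess their differences were −0.01 and −0.03 and no longer called. EIF3C was called higher (log2 difference 0.23 ± 0.08 SE, adjusted p = 0.0392), a call lost without MI-389 replicate 1, 2 or 3 (adjusted p 0.108, 0.0667 and 0.0917). Its reads are shared with the near copy EIF3CL, which was listed below 1 FPKM, so its level is uncertain.

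The cap-binding complex eIF4F and its cofactors had 10 tested members, of which 0 were called higher and 7 lower under the MI-389 title, and 0 and 4 under the sunitinib title. Of all genes 28.3% and 16.9% were lower in these comparisons. The cap-binding protein EIF4E measured 111, 118 and 125 FPKM with DMSO, 108, 98.1 and 97.8 FPKM titled sunitinib and 95.4, 92.1 and 94.2 FPKM titled MI-389. The libraries titled MI-389 lay below every DMSO library and those titled sunitinib did too (log2 difference −0.32 ± 0.06 SE, adjusted p = 0.00128 and log2 difference −0.22 ± 0.06 SE, adjusted p = 0.0339). EIF4E2, a cap-binding relative that does not bind eIF4G, fell more, at 93.5, 108 and 106 FPKM with DMSO, 85.5, 84.5 and 90.0 FPKM titled sunitinib and 76.8, 68.8 and 67.6 FPKM titled MI-389. No groups overlapped for EIF4E2 (log2 difference −0.52 ± 0.07 SE, adjusted p = 1.92e-04 under the MI-389 title). The falls of EIF4E and EIF4E2 under the sunitinib title were lost in 5 or more alternatives, among them without DMSO replicate 2 or 3, at adjusted p up to 0.134 and 0.163.

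The scaffold EIF4G1 measured 196, 228 and 249.7 FPKM with DMSO, 182, 177 and 179 FPKM titled sunitinib and 194, 174 and 191 FPKM titled MI-389. All treated libraries lay below the DMSO libraries (log2 difference −0.26 ± 0.08 SE, adjusted p = 0.0224 under the MI-389 title and log2 difference −0.32 ± 0.08 SE, adjusted p = 0.0288 under the sunitinib title). The former call was lost without DMSO replicate 2 or 3 and without MI-389 replicate 2 (adjusted p 0.0671, 0.0643 and 0.085), and the latter without any library but DMSO replicate 1 (0.0651 to 0.0955). After quantile normalization and cyclic loess the MI-389 difference of EIF4G1 was −0.09 and −0.05 and no longer called. The helicase EIF4A1 was called lower under the MI-389 title (log2 difference −0.24 ± 0.08 SE, adjusted p = 0.0281). Its difference turned to 0.04 and 0.10 after quantile normalization and cyclic loess, so its direction depends on the scaling. The call was also lost with any library but DMSO replicate 1 left out (adjusted p 0.0509 to 0.102), and with the replicate block (0.051). Its copy EIF4A2 measured 539, 607 and 633 FPKM with DMSO, 531, 509 and 510.3 FPKM titled sunitinib and 626, 606 and 635 FPKM titled MI-389. The MI-389 and DMSO libraries of EIF4A2 overlapped (log2 difference 0.07 ± 0.07 SE, adjusted p = 0.362), but EIF4A2 was called higher with quantile scaling (0.35, adjusted p = 4.59e-06) and with cyclic loess (0.38, adjusted p = 2.62e-06). Within each library, EIF4A2 per EIF4A1 was 0.549 with DMSO, 0.566 in libraries titled sunitinib and 0.682 in those titled MI-389. Only the last stood apart from DMSO (exact permutation p = 0.1, adjusted p = 0.129).

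The helicase cofactor EIF4H fell from 433 ± 48.2 FPKM (SD, n = 3) to 337 ± 7.46 FPKM (SD, n = 3) under the MI-389 title (log2 difference −0.35 ± 0.08 SE, adjusted p = 0.00308). EIF4B, the other cofactor, fell by 0.31 there (adjusted p = 0.00622) and by 0.03 after cyclic loess, where it was not called. EIF4G3, a copy of EIF4G1, measured 20.1, 19.8 and 22.9 FPKM with DMSO, 16.5, 16.9 and 16.8 FPKM titled sunitinib and 22.0, 19.4 and 21.3 FPKM titled MI-389. It was lower in all libraries titled sunitinib (log2 difference −0.31 ± 0.07 SE, adjusted p = 0.0162), a call lost without any one sunitinib library (adjusted p 0.0513 to 0.0605). EIF4G2, an eIF4G relative, was called in neither group as deposited, but higher under the MI-389 title with quantile scaling (0.19) and with cyclic loess (0.25). EIF4G2 per EIF4G1 was 3.48 with DMSO, 3.93 under the sunitinib title and 3.97 under the MI-389 title.

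Of the 4 transcripts for eIF4E inhibitors and partners, 1 was called higher and 2 lower under the MI-389 title, and 0 either way under the sunitinib title. Over all genes the shares were 28.5% higher and 28.3% lower, and 2.37% and 16.9%, so counts among 4 say little. EIF4EBP1, which blocks eIF4E when mTOR is inactive, measured 100.2, 119.7 and 126 FPKM with DMSO, 102, 100.4 and 110.1 FPKM titled sunitinib and 237, 229 and 238 FPKM titled MI-389. Its libraries titled MI-389 lay far above all others (log2 difference 1.03 ± 0.08 SE, adjusted p = 7.51e-06), and those titled sunitinib overlapped DMSO (log2 difference −0.14 ± 0.08 SE, adjusted p = 0.251). EIF4EBP2, the second inhibitor, went the other way, at 62.3, 68.9 and 72.9 FPKM with DMSO, 60.5, 56.9 and 58.6 FPKM titled sunitinib and 54.2, 48.1 and 54.8 FPKM titled MI-389 (log2 difference −0.37 ± 0.07 SE, adjusted p = 0.00161 under the MI-389 title). All 3 libraries titled MI-389 were lower than every DMSO library for EIF4EBP2, and those titled sunitinib were lower too but not called (adjusted p = 0.0684). EIF4EBP1 per EIF4E within a library was 0.976 ± 0.0625 with DMSO, 1.03 ± 0.0931 under the sunitinib title and 2.50 ± 0.0254 under the MI-389 title (SD, n = 3). That ratio is free of any factor shared by a whole library, and its log2 change of 1.36 had the smallest exact permutation p possible, 0.1 (adjusted p = 0.129).

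**Figure D3:**
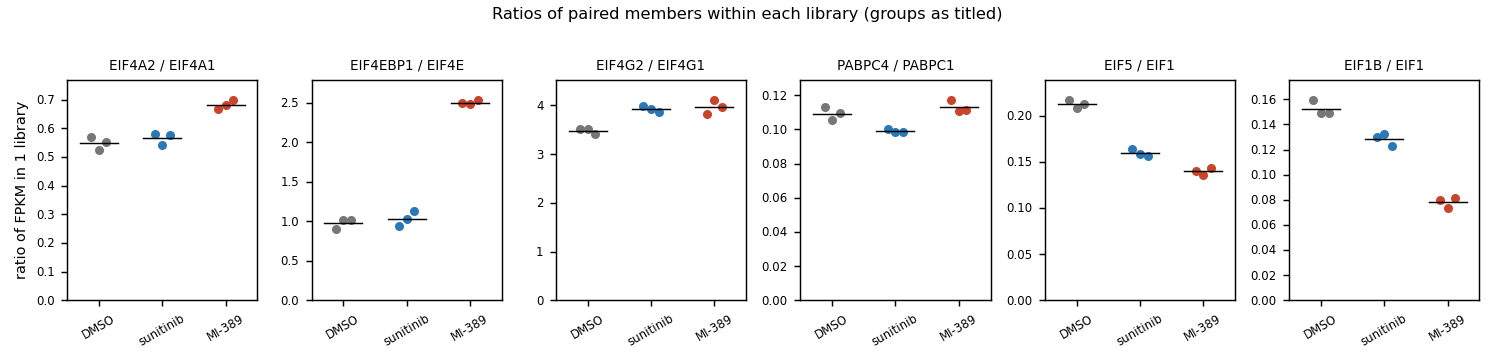
Ratio of FPKM of 6 pairs of members within each library, by group as titled; points are libraries and bars the mean of 3. EIF4EBP1 per EIF4E stands near 1 in 6 libraries and near 2.50 in the 3 titled MI-389, while EIF1B per EIF1 and EIF5 per EIF1 step down from DMSO to sunitinib to MI-389.

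The exon junction helicase EIF4A3, a splicing factor despite its name, was called lower under the sunitinib title, by 0.24 (adjusted p = 0.0451). That call was kept without DMSO replicate 1 and lost without any other library (adjusted p from 0.0837 to 0.145). EIF5A, the hypusine-containing factor that eases elongation and termination, fell under the MI-389 title, at 668, 805 and 825 FPKM with DMSO, 661, 675 and 665 FPKM titled sunitinib and 550.0, 536 and 555 FPKM titled MI-389. All libraries titled MI-389 lay below all others (log2 difference −0.48 ± 0.08 SE, adjusted p = 5.41e-04), and the libraries titled sunitinib were not called (log2 difference −0.19 ± 0.08 SE, adjusted p = 0.106). EIF5AL1, a copy of EIF5A, fell with it (log2 difference −0.41 ± 0.06 SE, adjusted p = 3.16e-04). Reads of the 2 genes cannot be divided with certainty.

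Of the 7 transcripts listed under elongation, which include the kinase EEF2K and the synthetase-complex protein EEF1E1, 0 were called higher and 5 lower under the MI-389 title (28.3% of all genes were lower). The 5 were EEF1A1, EEF1D, EEF1E1, EEF1G and EEF2K, and the median of the 7 was −0.34. After quantile normalization 2 were higher and 4 lower, and after cyclic loess 3 were higher and 3 lower. EEF1A1 was the most abundant member, at 5856, 7399 and 7244 FPKM with DMSO, 6954, 7049 and 6689 FPKM titled sunitinib and 4461, 4384 and 4592 FPKM titled MI-389. The libraries titled MI-389 lay below all others, and those titled sunitinib lay within the range of DMSO (log2 difference −0.60 ± 0.09 SE, adjusted p = 4.42e-04 and log2 difference 0.02 ± 0.09 SE, adjusted p = 0.899). The fall of EEF1A1 was called in every alternative, but its size was −0.16 at the smallest among the 4 scalings and −0.68 at the largest. The many processed copies of EEF1A1 make its read division uncertain.

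The exchange subunit EEF1G measured 2555, 3293 and 3230.1 FPKM with DMSO, 2940.2, 3039.9 and 2876 FPKM titled sunitinib and 2446, 2381 and 2479 FPKM titled MI-389. Its libraries titled MI-389 were below every DMSO library (log2 difference −0.30 ± 0.09 SE, adjusted p = 0.0197), yet the difference was 0.10 after cyclic loess, so its direction depends on the scaling. The call was also lost without DMSO replicate 2 or 3 and without MI-389 replicate 1 or 2 (adjusted p 0.071, 0.0686, 0.0538 and 0.0648). EEF1D, another exchange subunit, fell under the MI-389 title from 694 ± 76.7 FPKM (SD, n = 3) to 545 ± 16.2 FPKM (SD, n = 3) (log2 difference −0.34 ± 0.08 SE, adjusted p = 0.00491), and was not called after cyclic loess (−0.02, adjusted p = 0.472). EEF1B2, named after its values were seen to complete the subunits, was not called (log2 difference −0.15 ± 0.08 SE, adjusted p = 0.143). Its direction also depends on the scaling, since quantile normalization made it higher (0.25, adjusted p = 2.43e-04), as did cyclic loess (0.24, adjusted p = 1.55e-06). EEF2, the translocase, measured 1239.6, 1608 and 1672 FPKM with DMSO, 1574, 1591 and 1522 FPKM titled sunitinib and 1415, 1366 and 1398 FPKM titled MI-389. Its MI-389 and DMSO libraries overlapped, and its difference was −0.10 as deposited and 0.28 and 0.26 after quantile normalization and cyclic loess, with adjusted p = 0.417 in the first case.

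The less abundant transcripts of the group fell under every scaling of the MI-389 comparison. EEF1E1, which sits in the aminoacyl-tRNA synthetase complex, measured 143, 155 and 159 FPKM with DMSO, 127, 117 and 122 FPKM titled sunitinib and 119, 98.7 and 96.2 FPKM titled MI-389. No treated library reached the DMSO range, and the fall under the MI-389 title held in every alternative (log2 difference −0.54 ± 0.08 SE, adjusted p = 3.82e-04). EEF2K, the kinase that inhibits eEF2, measured 6.55, 6.81 and 6.92 FPKM with DMSO, 5.75, 5.15 and 5.31 FPKM titled sunitinib and 5.30, 4.70 and 5.07 FPKM titled MI-389. Its treated libraries all lay below DMSO (log2 difference −0.37 ± 0.07 SE, adjusted p = 0.00185 under the MI-389 title). Under the sunitinib title EEF1E1 and EEF2K were called as well (adjusted p = 0.0273 and 0.0271), calls both lost without DMSO replicate 2 or 3 and without sunitinib replicate 2 or 3, at adjusted p up to 0.103 and 0.102, and that of EEF1E1 also without sunitinib replicate 1 (0.0507).

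**Figure D4:**
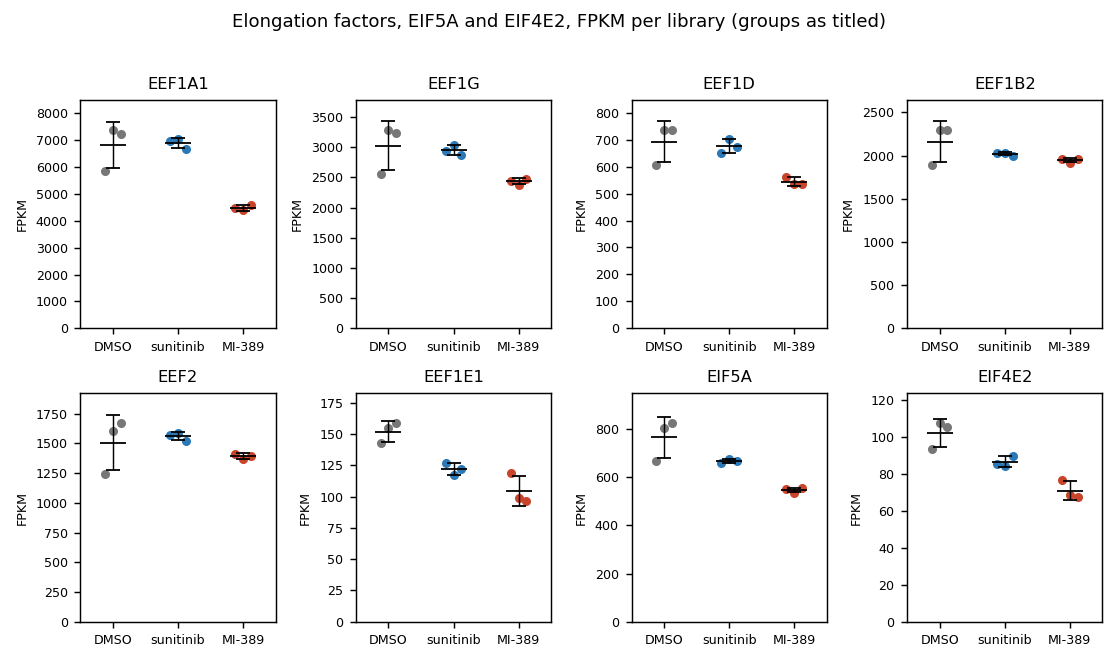
FPKM of EEF1A1, EEF1G, EEF1D, EEF1B2, EEF2, EEF1E1, EIF5A and EIF4E2 in each library, by group as titled; points are libraries, and black marks give the mean and SD of 3. EEF1A1 averages 6833 FPKM with DMSO, 6897 titled sunitinib and 4479 titled MI-389, while EEF2 overlaps between DMSO and MI-389 titles.

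PABPC1, the main poly(A)-binding protein, measured 1433, 1733 and 1782 FPKM with DMSO, 1552, 1561 and 1519.7 FPKM titled sunitinib and 1364, 1301 and 1379.9 FPKM titled MI-389. It was called lower under the MI-389 title (log2 difference −0.28 ± 0.08 SE, adjusted p = 0.014), a call lost without DMSO replicate 2 or MI-389 replicate 2 (adjusted p 0.0522 and 0.0544). Quantile normalization and cyclic loess turned the difference to 0.11 and 0.08. Its less abundant relative PABPC4 measured 162, 183 and 195 FPKM with DMSO, 156, 154 and 150.0 FPKM titled sunitinib and 159.7, 144 and 154 FPKM titled MI-389. All treated libraries lay below DMSO (log2 difference −0.23 ± 0.07 SE, adjusted p = 0.0177 titled MI-389, and log2 difference −0.23 ± 0.07 SE, adjusted p = 0.0495 titled sunitinib). The MI-389 call was lost without DMSO replicate 2 or MI-389 replicate 2 (adjusted p 0.0562 and 0.0689) and after cyclic loess (−0.04). The sunitinib call was lost without any library but DMSO replicate 1 (0.0971 to 0.146). Within libraries PABPC4 per PABPC1 was 0.109, 0.0991 and 0.113 in DMSO, sunitinib and MI-389 titles.

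The 10 members on a list of TOP messenger RNAs (EEF1A1, EEF1B2, EEF1D, EEF1G, EEF2, EIF3E, EIF3F, EIF3H, EIF4B and PABPC1) were described against the other 48. Under the MI-389 title 0 TOP members were called higher and 6 lower, with a median log2 difference of −0.29, where 28.5% of all genes were higher and 28.3% lower. The direction of the TOP list depends on the scaling: 5 were higher and 4 lower after quantile normalization (median 0.04), and 6 higher and 1 lower after cyclic loess (median 0.09). Under the sunitinib title 0 were called, with a median of −0.02, where 2.37% of all genes were higher and 16.9% lower. After quantile normalization 4 were higher there, and after cyclic loess 7. The other 48 members had 7 higher and 19 lower under the MI-389 title (median −0.06), and 0 higher and 18 lower under the sunitinib title (median −0.18). The pyrimidine run at the annotated start, shown above for EEF1A1, EEF2 and EEF1B2, grouped the members differently. Under the MI-389 title the 12 tested members with it had 0 higher and 4 lower and a median of −0.08. The 36 without had 5 higher and 18 lower and a median of −0.15. Of the TOP list, EEF1D, EIF3E, EIF3H and PABPC1 had no sequence, and EEF1G counted among those without the run. The list and the run therefore cover different genes, and their medians cannot be set against each other. TOP members are abundant, and abundance moved with the difference: among all tested genes of at least 1000 FPKM the median under the MI-389 title was −0.31 (187 genes) and among the 6 members of that level −0.22. Between 100 and 1000 FPKM it was −0.22 for 1792 genes and −0.09 for 35 members, and below 100 FPKM 0.05 for 10322 genes and −0.14 for 17 members. The part of abundance in these differences was not tested.

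**Figure D5:**
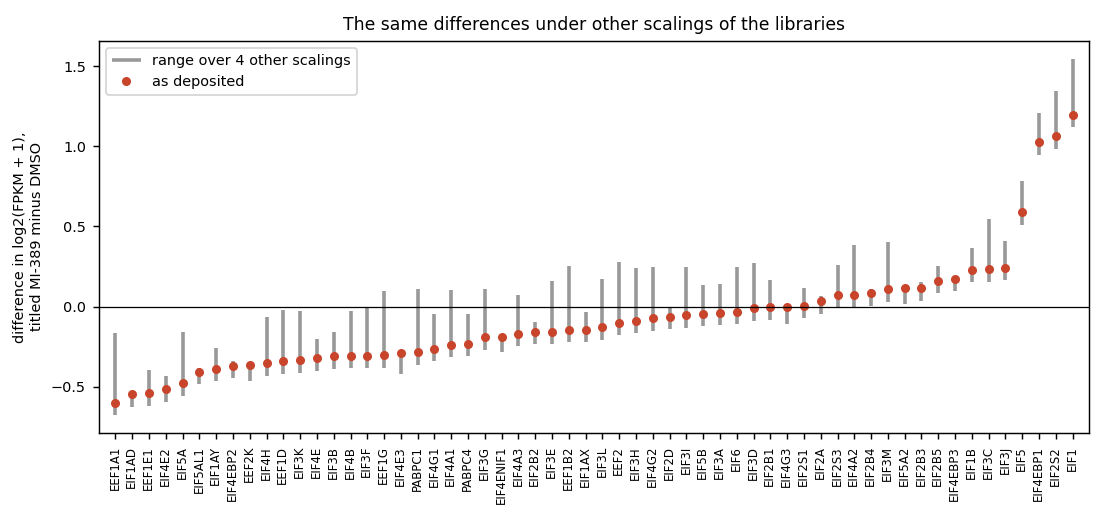
The difference in log2(FPKM + 1) between libraries titled MI-389 and DMSO for each tested member (red points, as deposited) with the range over median centring, quantile normalization, cyclic loess and rescaling to spike-in rows (gray bars). EIF1, EIF2S2, EIF4EBP1 and EIF5 stay above 0.50 throughout, and abundant members such as EEF1G, EEF2 and PABPC1 cross 0.

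Between the treated groups, where the doses in the crossed field differ, 15 members were called higher and 15 lower under the MI-389 title than under the sunitinib title (25.9% each, where 36.0% and 20.3% of all genes were called, 56.3% together). EIF4EBP1, EIF2S2, EIF1 and EIF5 again stood highest, at log2 differences of 1.17, 1.03, 1.01 and 0.81. EEF1A1 was lowest (log2 difference −0.62 ± 0.09 SE, adjusted p = 3.48e-04). These values share their MI-389 libraries with the comparison to DMSO and are no second test of it. EIF3J (log2 difference 0.49 ± 0.07 SE, adjusted p = 2.27e-04) and EIF2B3 (log2 difference 0.34 ± 0.06 SE, adjusted p = 7.38e-04) differed between the treated groups under every alternative. Other scalings gave 10 higher and 32 lower (median centring), 28 and 22 (quantile), 32 and 17 (cyclic loess) and 16 and 16 (spike-in rows). Over all 12301 genes they gave 3279 higher and 4863 lower, 3791 and 4426, 4075 and 4040, and 4439 and 2457. Libraries of 44 of the 58 members did not overlap, against 69.4% of all genes.

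Calls that stood in every alternative run comprised 6 of the 7 rises and 13 of the 25 falls under the MI-389 title. The rises were EIF1, EIF1B, EIF2S2, EIF3J, EIF4EBP1 and EIF5. The falls were EEF1A1, EEF1E1, EEF2K, EIF1AD, EIF1AY, EIF3B, EIF4E, EIF4E2, EIF4E3, EIF4EBP2, EIF4H, EIF5A and EIF5AL1. Between the treated groups 10 of 15 rises and 9 of 15 falls stood, and under the sunitinib title 2 of 18 falls.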

How the data were processed

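Libraries came from polyA RNA made with the SMARTer v4 kit, which does not mark strand, and ERCC spike-in RNA had been added by cell number, per the labels' protocols. The submitters' processing notes list HISAT, Cufflinks 2.0.0 and hg19. How libraries were normalized, and on which annotation, is not given in the sources used here. Values were used in FPKM, as the authors deposited them in 1 table with a column for each of the 9 libraries.

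On log2(FPKM + 1), limma 3.58.1 (R 4.3.3) was fitted to all groups at once with a trended variance, after removal of genes averaging below 1 FPKM. Tests were two-sided, p-values were adjusted by Benjamini-Hochberg over the 12301 genes left, and an adjusted p below 0.05 is written as called. The fit was checked on simulated data with independent noise and no shift of whole libraries, so that check does not bear on such shifts. Folds compare mean FPKM, whereas log2 differences understate changes of low genes. Ratios of 6 pairs of members were compared with exact permutation tests, adjusted over 18 tests. Members, lists and named genes were chosen with earlier results of these data known. The naming rule took called members whose libraries do not overlap and whose higher group averages 5 FPKM or more. It also took 18 members in every comparison and 3 called genes per list of other factors. Not every member that the rule took is described. The alternatives tried were a pseudocount of 0.1 or 5, another or no expression filter, 4 scalings, fits to 6 libraries, a block for the replicate number, an untrended variance, and omission of each library in turn. Precision rests on 3 libraries a group, and depth in reads is unknown.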

Additional observations from a re-analysis of the deposited data

How the results depend on the processing

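Under quantile normalization the members called higher and lower under the MI-389 title numbered 27 and 21, and under cyclic loess 30 and 16; leaving out 1 library gave 6 to 10 higher and 17 to 36 lower. Under the sunitinib title 5, 11, 14 and 1 were higher after median centring, quantile scaling, cyclic loess and spike-in rescaling, and 0 to 1 with 1 library left out. Falls under that title numbered 7 with no filter, 4 in the 6 libraries alone, 6 with the replicate block, and 2 to 42 with 1 library left out. Between the treated groups 28 and 32 were higher after quantile scaling and cyclic loess, and 9 (no filter) and 32 (median centring) lower, with 9 to 10 lower when 1 library was left out. The cause of these changes was not tested.

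Values of turned signs are given for the members that the naming rule takes in each comparison, with EEF1B2, EIF4G2 and EIF5B, and the rest are counted. For MI-389 against DMSO, signs turned under 1 or more of the 4 scalings in 22 of the 58 members. Quantile scaling gave EEF1B2 0.25, EEF2 0.28, EIF3A 0.076, EIF4A1 0.044, EIF4G2 0.19, EIF5B 0.078, EIF6 0.20 and PABPC1 0.11. Cyclic loess gave EEF1B2 0.24, EEF1G 0.097, EEF2 0.26, EIF3A 0.14, EIF4A1 0.10, EIF4G2 0.25, EIF5B 0.14, EIF6 0.25 and PABPC1 0.080. Centring on library medians gave EIF2S1 −0.074 and EIF4A2 −0.0054. With 1 library left out, EIF2S1 ranged from −0.044 to 0.045, EIF3A ranged from −0.13 to 0.023 and EIF6 ranged from −0.11 to 0.028. For sunitinib against DMSO, signs turned under 1 or more of the 4 scalings in 17 of the 58 members. Quantile scaling gave EEF1B2 0.053 and EIF6 0.013. Cyclic loess gave EEF1B2 0.011, EIF6 0.015 and PABPC1 0.019. With 1 library left out, EEF1A1 ranged from −0.086 to 0.082, EEF2 ranged from −0.070 to 0.15 and EIF2B5 ranged from −0.075 to 0.069. Between the treated groups, signs turned under 1 or more of the 4 scalings in 22 of the 58 members. Quantile scaling gave EEF1B2 0.20, EEF2 0.17, EIF4A1 0.14, PABPC1 0.15 and PABPC4 0.010. Cyclic loess gave EEF1B2 0.23, EEF1G 0.028, EEF2 0.091, EIF4A1 0.22, PABPC1 0.062 and PABPC4 0.047. Centring on library medians gave EIF2B5 −0.0049, EIF4G1 −0.11, EIF4G2 −0.096 and EIF6 −0.074. Spike-in rescaling gave EIF4A1 0.0064 and PABPC4 0.0019. With 1 library left out, EIF4A1 ranged from −0.023 to 0.020, PABPC4 ranged from −0.038 to 0.034 and EIF4G2 per EIF4G1 ranged from −0.010 to 0.039.

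Deviations of each gene from its group mean were correlated between libraries of different groups. They gave −0.04 to 0.11 for same-numbered libraries and −0.22 to 0.13 for differently numbered ones. Same numbers thus showed no closer match, and the labels state no pairing. With the replicate block 6 members were higher and 23 lower under the MI-389 title. The table holds no read totals, so what depth limits could not be computed.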

Other observations

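Translation factors outside the 62 members were read from lists chosen with earlier results of these data known, and up to 3 called genes with the smallest adjusted p were named per list and comparison. Of 25 tested cytosolic factors and regulators, 3 were higher and 6 lower under the MI-389 title, and 1 higher and 4 lower under the sunitinib title. Over all genes the shares were 28.5% higher and 28.3% lower, and 2.37% and 16.9%. ABCE1, which splits ribosomes after termination, measured 192, 206 and 221 FPKM with DMSO, 179, 175 and 170.2 FPKM titled sunitinib and 107, 98.1 and 107 FPKM titled MI-389 (log2 difference −0.98 ± 0.06 SE, adjusted p = 1.91e-06 for MI-389). DDX3X, an RNA helicase active in initiation, fell from 144 ± 11.7 FPKM (SD, n = 3) to 77.9 ± 3.20 FPKM (SD, n = 3) (log2 difference −0.88 ± 0.07 SE, adjusted p = 5.23e-06). MKNK2, a kinase of eIF4E, fell from 58.8 ± 7.08 FPKM (SD, n = 3) to 28.1 ± 0.663 FPKM (SD, n = 3) (log2 difference −1.03 ± 0.08 SE, adjusted p = 8.65e-06). Each of these 3 falls under the MI-389 title was larger on the log2 scale than that of any member, and each was called in every alternative. PDCD4, an inhibitor of eIF4A, was called higher under both titles. It measured 24.2, 23.9 and 25.9 FPKM in DMSO and 31.7, 30.8 and 31.9 FPKM in libraries titled MI-389 (log2 difference 0.34 ± 0.05 SE, adjusted p = 4.49e-04). Under the sunitinib title PDCD4 measured 33.4, 31.0 and 31.1 FPKM (log2 difference 0.36 ± 0.05 SE, adjusted p = 0.00351). LARP4 was lower there (log2 difference −0.31 ± 0.07 SE, adjusted p = 0.0123; adjusted p = 0.0575 without sunitinib replicate 2), as was ABCE1 (log2 difference −0.24 ± 0.06 SE, adjusted p = 0.0273), whose call was lost without any library but DMSO replicate 1 (adjusted p 0.0553 to 0.101).

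Of 9 mitochondrial translation factors, 3 were higher and 3 lower under the MI-389 title, beside 28.5% and 28.3% of all genes, and 0 were called under the sunitinib title. MTRF1L, a mitochondrial release factor, rose by a log2 difference of 0.54 (adjusted p = 1.66e-04) and the initiation factor MTIF2 by 0.35 (adjusted p = 3.55e-04). MTIF3, the other mitochondrial initiation factor, fell from 88.3 ± 2.41 FPKM (SD, n = 3) to 72.1 ± 3.44 FPKM (SD, n = 3) (log2 difference −0.29 ± 0.05 SE, adjusted p = 0.00113). All 3 calls held in every alternative.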
